A study of Macaca mulatta with 144 samples.

Results

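miR-215-5p (mml-miR-215-5p in the count table) was followed in serum as 1 of 908 mature miRNAs counted, of which the 290 counted in 40% or more of the 144 libraries were tested. The row was taken by its name. It was chosen by its earlier reported fall after irradiation in these same libraries, so its change over time is given as a description without a test, and tests are kept for RD, survival and sex. Serum came from 36 NHPs (rhesus macaques, 19 males and 17 females), each sampled at 4 times, once before total body irradiation (TBI) with 60Co gamma rays and then on days 1, 2 and 6 after it. The radiation dose (RD) rose from 6.0 to 8.5 Gy in steps of 0.5 Gy, with 6 NHPs at each. All 36 NHPs were irradiated and received supportive care, so no unirradiated group was followed, and the pre-irradiation samples served as the baseline. By the labels, 15 NHPs survived and 21 were deceased, with 4, 3, 2, 4, 1 and 1 survivors of 6 from the lowest to the highest RD.

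MicroRNAs are short RNAs that pair through bases 2 to 8, the seed, with messenger RNAs and lower their translation or stability. miR-215 belongs with miR-192 and miR-194 to a group that is abundant in the epithelium of the intestine and in the kidney, and miR-192 is abundant in liver as well. In human cells p53 raises miR-192, miR-194 and miR-215, which slow the cell cycle after DNA damage. Small amounts of tissue miRNAs circulate in serum in vesicles and protein complexes, where the tissue of origin is not recorded. A smaller release per cell, fewer releasing cells and faster clearance cannot be told apart in such samples.

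The mature sequences of miR-215-5p and its closest relative are shown because the identity of the counted reads rests on them. They are the macaque sequences in the study's own list of miRNAs conserved between macaque and human, written 5′ to 3′ with the seed in capitals.
miR-215-5p: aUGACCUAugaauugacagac
miR-192-5p: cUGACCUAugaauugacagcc
Both sequences were 21 bases long and identical to the human sequences in that list, and of its 151 miRNAs these 2 alone had this seed. The list holds only miRNAs that the study also called differentially expressed, and miRNAs outside it were not searched for this seed. Counted from 1 at the 5′ end, with the base of miR-215-5p first, they differed by A1C and A20C. The methods name a maximum mismatch of 2 where they describe read trimming and do not say how reads close to both sequences were assigned, so counts of the pair may share reads, and how many was not tested. In the RefSeq annotation of the macaque assembly T2T-MMU8v2.0, MIR215 lay beside MIR194-1 and MIR192 beside MIR194-2, with 0 annotated genes between the members of either pair.

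miR-215-5p was a minor part of the serum counts and was found in nearly all libraries. It had 24042 counts in all, the 67th most of any miRNA and 0.0335% of the total, and a count in 138 of 144 libraries. Its count per library ran from 0 to 3010 with a median of 46. miR-192-5p, its seed partner, had 194512 counts, was counted in 143 libraries and had a median of 618. miR-194-5p, processed from the neighbouring genes, had 752 counts in 95 libraries with a median of 3. The opposite arms were close to absent, with 14 counts of miR-215-3p, 6 of miR-192-3p and 5 of miR-194-3p over all libraries, and did not reach the tests. The 5p arms of this group are therefore the measurable members, and of these miR-194-5p was measured with little precision.

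Library totals ran from 11174 to 4118401 counts with a median of 280254.5, and 7 libraries held fewer than 28025 counts. Levels are given as CPM (counts scaled to a common library total) after scaling by TMM factors, which ran from 0.0907 to 3.91, and on a log2 scale as log2(CPM + 1). The rank correlation of the log2 level of miR-215-5p with the library total was 0.072 and with the TMM factor 0.221 across the 144 libraries, 4 from each animal. In 6 libraries miR-215-5p had no count. These were RA2709M before irradiation, RA2742F on day 1, RA2116F on day 2, and RA2021F, RA2709M and RA2816M on day 6. Their totals ran from 11174 to 80610, for which a count of 0 allows up to 268 CPM in the smallest and 37.2 CPM in the largest (3 counts of the total before scaling, counting error only). In RA2021F on day 6 (268 CPM) and RA2116F on day 2 (209 CPM) a 0 thus does not show a level below the median of all libraries, which was 184 CPM before scaling. The TMM factors of the 6 libraries ran from 0.225 to 0.542, so scaling raises each of these limits. After scaling the median of all libraries was 138 CPM, so a log2 level of 0 in these libraries need not mean a low level. The libraries of RA2265F before irradiation and RA2694M on day 1 held identical counts, among them 10 of miR-215-5p, and results were also computed without both.

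Serum miR-215-5p was lower on day 1 than before irradiation in 29 of 36 NHPs, and its typical level was back near the starting level on day 2. Before irradiation it ran from 0 to 1993 CPM with a median of 180.2 CPM. On day 1 it ran from 0 to 1002 CPM with a median of 82.3 CPM. On day 2 it ran from 0 to 1550 CPM with a median of 179 CPM, and on day 6 from 0 to 728 CPM with a median of 185 CPM. The ranges of all 4 time points overlapped, while the middle part of the animals shifted on day 1, when the upper quartile (129 CPM) lay below the median of each other time point. In 20 of 36 NHPs the lowest of the 4 levels was that of day 1, against 4 before irradiation, 5 on day 2 and 7 on day 6. Against pre-irradiation, in a model of time that did not pair the samples of an animal, edgeR gave a log2 (Fold change) of -1.22 (SE 0.29) for day 1, of -0.29 (SE 0.29) for day 2 and of -0.58 (SE 0.29) for day 6. Of the 290 miRNAs, 6.55% were called on day 1, 0.69% on day 2 and 6.55% on day 6 at adjusted p under 0.05, a share from which nothing is read for miR-215-5p, since this contrast chose it.

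**Figure D1:**
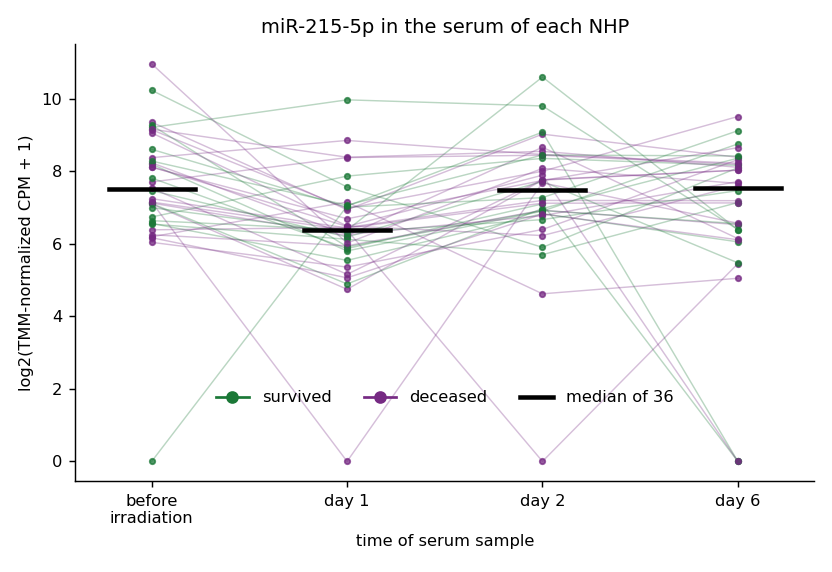
Level of miR-215-5p, as log2(TMM-normalized CPM + 1), in the 4 serum samples of each of 36 NHPs (1 line per animal, coloured by survival), with the median of each time point as a black bar. The median is lowest on day 1 (6.38, against 7.50 before irradiation), and the 6 libraries without a count lie at 0.

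Single animals moved by different amounts, and some moved the other way. The change of level on the log2 scale on day 1 had a median of -1.16 and a mean of -1.18 (SD 2.14, n = 36). On day 2 the median change was -0.13 (mean -0.22, SD 2.44, n = 36) and 19 NHPs were lower and 17 higher. On day 6 the median change was -0.14 (mean -0.76, SD 2.16, n = 36), with 20 lower, 15 higher and RA2709M at 0 counts both times. RA2116F on day 2 and RA2021F on day 6 are counted as lower. The scaled limits of their 0 counts exceeded their pre-irradiation levels of 141 and 224 CPM. RA2709M is counted as higher on day 1, though the scaled limit before irradiation exceeded its 131 CPM of day 1. The direction of each is thus not known, and the sizes, which enter the means and SDs, depend on the 1 CPM added. Between days 1 and 2 the level was higher on day 2 in 29 of 36 NHPs, with a median difference of 1.03. After removal of the mean of each time point, the samples of 1 animal had an SD of 1.69 on this scale, with the 6 libraries without a count included.

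A few libraries set much of the estimate on days 2 and 6. RA2745F, at 7.5 Gy, had the highest level of all before irradiation, 1993 CPM from 840 counts, and 63.9, 269 and 202 CPM on days 1, 2 and 6. Without this animal the log2 (Fold change) came to -0.96, 0.03 and -0.34 on days 1, 2 and 6. RA2576M, at 6.5 Gy, had 98.6 CPM before irradiation, 82.2 CPM on day 1, 1550 CPM on day 2 and 82.8 CPM on day 6. Without it the value of day 2 was -0.45. RA2596M, at 8.0 Gy, was the NHP with the highest mean level, with 591, 1002, 891 and 83.1 CPM at the 4 time points. The value of day 2 was also -0.13 without RA0529F and -0.18 without RA2694M. With each animal left out in turn, day 1 ran from -1.52 to -0.96, day 2 from -0.45 to 0.03 and day 6 from -0.77 to -0.34.

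Scaling also bore on day 6. Without TMM factors the median was 298 CPM before irradiation and 160 CPM on day 6, and 26 of 36 NHPs were lower on day 6, against 20 with the factors. The log2 (Fold change) of day 6 was -0.94 without factors, where the median of all 290 miRNAs was -0.38, and -0.58 with them, where that median was -0.04. With each animal as a block, that is as its own baseline, the values became -1.23, -0.18 and -0.38 on days 1, 2 and 6, and the number of the 290 miRNAs called on day 6 went from 19 to 4.

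miR-192-5p, which shares the seed, did not pass the test on any day. Its level was 517 to 13405 CPM before irradiation (median 1680), 417 to 7833 CPM on day 1 (median 1405), 212 to 6955 CPM on day 2 (median 1300) and 0 to 15492 CPM on day 6 (median 1511). The groups overlapped over most of their range, and on day 1 as many NHPs were lower (18) as higher (18). On day 2, 24 were lower and 12 higher, and on day 6, 20 were lower and 16 higher. By edgeR quasi-likelihood tests adjusted over 290 miRNAs, its log2 (Fold change) came to -0.33 for day 1 (SE 0.27, adjusted p = 0.706), -0.65 for day 2 (SE 0.27, adjusted p = 0.234) and -0.28 for day 6 (SE 0.27, adjusted p = 0.657). For miR-194-5p, made from both genomic neighbours, the same test gave 0.02 for day 1 (SE 0.29, adjusted p = 0.981), -0.09 for day 2 (SE 0.31, adjusted p = 0.901) and 0.07 for day 6 (SE 0.31, adjusted p = 0.938). The 95% intervals on day 1 ran from -0.87 to 0.21 for miR-192-5p and from -0.55 to 0.59 for miR-194-5p. On day 2 that of miR-192-5p ran from -1.19 to -0.11, below 0 before adjustment over the 290 miRNAs. No interval is set beside these for miR-215-5p, since this contrast chose it. The difference between miR-215-5p and miR-192-5p was not tested and is described by their ratio.

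The share of miR-215-5p in the summed counts of the seed pair does not depend on the library total or the scaling factor. In the 34 libraries with at least 50 counts of the pair before irradiation it was 2.81% to 21.7% with a median of 10.4%. In 33 such libraries on day 1 it was 1.25% to 19.4% with a median of 5.76%. On day 2 the 31 libraries had 4.30% to 23.2% with a median of 12.4%, and on day 6 the 31 libraries had 2.52% to 27.4% with a median of 8.81%. The share was thus lowest on day 1 as well, with wide overlap between time points. Over all libraries it was lower on day 1 than before irradiation in 28 of 36 NHPs, with a median change of -4.16 percentage points, and in 19 of 36 NHPs on day 2 and 23 of 36 on day 6. This share uses the same samples that chose miR-215-5p and was given no test.

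**Figure D2:**
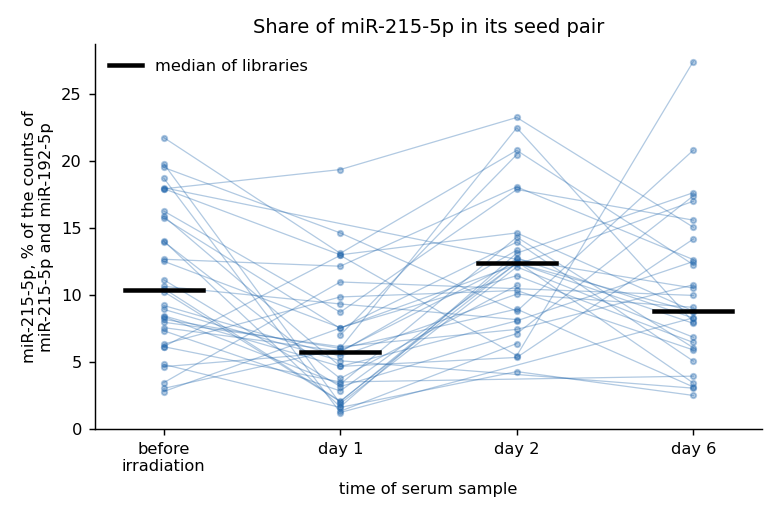
Counts of miR-215-5p as a percentage of the counts of miR-215-5p and miR-192-5p together, by time of sampling, for libraries with at least 50 counts of the pair, with lines joining the samples of 1 NHP and black bars at the medians. The median falls from 10.4% in pre-irradiation serum to 5.76% on day 1, then lies at 12.4% and 8.81% on days 2 and 6.

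Other miRNAs that are abundant in gut epithelium were called up on day 1 or did not pass, and none was called down. Among those that did not pass, miR-183-5p (-0.61, SE 0.68), miR-196b-5p (-0.36, SE 0.39) and miR-192-5p (-0.33, SE 0.27) had log2 (Fold change) values below 0. That of miR-194-5p was 0.02. The gut epithelium list and the lists that follow were chosen with earlier results of these data known, so their counts and p-values are descriptions. Of the 9 tested members of the gut epithelium list (miR-215-5p left out), 5 were called up and 0 down on day 1. That day 6.55% of all 290 miRNAs were called in either direction. The median log2 (Fold change) was 1.14, against 0.02 over all 290. miR-375, made by endocrine cells of the gut and by pancreatic islets, rose by 4.11 (SE 0.38, adjusted p = 1.7e-18). miR-141-3p, an epithelial miRNA of the miR-200 family, rose by 2.204 (SE 0.31, adjusted p = 4.7e-09). Of the same family, miR-429-3p had 1.14 (SE 0.33, adjusted p = 0.0245) and miR-200a-3p had 1.38 (SE 0.39, adjusted p = 0.0203), both past the test. miR-375 and miR-141-3p passed on day 1 under each alternative and without each animal. The remaining call, miR-182 at 1.51 (SE 0.47, adjusted p = 0.0372), was lost with DESeq2, with RLE size factors, without the filter and without the identical libraries. It was also lost without any 1 of 21 of the 36 NHPs. The count of 5 was 4 with RLE size factors, without the filter and without the identical libraries, and 3 with DESeq2 and without scaling factors. It was 2 without RA2743F, 3 without any 1 of RA2580M, RA2592M, RA2596M or RA2745F, and fell as well wherever miR-182 was lost. On day 2, 1 of the 9 was called up, miR-375, and on day 6, 2 were, miR-375 and miR-182. None was called down on either day, against 0.69% and 6.55% of all miRNAs called. The 2 calls of day 6 became 0 with the animal as a block and 0 without scaling factors, 1 with the haemolysis covariate, 1 without RA1782F and 4 without RA2576M.

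Of the 6 tested members of the kidney list, 1 was called up on day 1, 0 on day 2 and 3 on day 6, and none was called down. On these days 6.55%, 0.69% and 6.55% of all 290 miRNAs were called. The counts of days 1 and 2 are thus near that share. On days 1, 2 and 6 the median log2 (Fold change) of the list was 0.43, 0.23 and 0.43, against 0.02, -0.07 and -0.04 over all 290 miRNAs. miR-30a-5p, a miRNA of kidney and many other tissues, rose by 0.75 on day 6 (SE 0.21, adjusted p = 0.0222), a call lost with the animal as a block (adjusted p = 0.0615) and without scaling factors (adjusted p = 0.47). miR-10a-5p rose by 0.84 (SE 0.26, adjusted p = 0.0311), a call lost with the block (adjusted p = 0.0705), without scaling factors (adjusted p = 0.27) and without any 1 of RA0456F, RA2118F, RA2592M or RA2691M. miR-204-5p, of kidney and retinal epithelium, had the largest fitted value of the list on day 6, 2.32 (SE 0.54, adjusted p = 0.00279). This value rested on 1 animal, since without RA1782F it was -0.32 (adjusted p = 0.834), and it was 0.05 with the block, -0.33 with DESeq2 and 0.52 without scaling factors. With the block or without scaling factors, 0 of the 6 passed on day 6. The single call of day 1, miR-30a-3p at 1.88 (SE 0.41, adjusted p = 0.000772), rested on 1 animal as well, with 0.33 without RA2742F (adjusted p = 0.777). It was also lost with the block (0.60, adjusted p = 0.45), with DESeq2 (0.24, adjusted p = 0.786), without scaling factors (0.85, adjusted p = 0.481) and with the haemolysis covariate (0.66, adjusted p = 0.343). miR-30a-5p passed on day 1 with the block (0.60, adjusted p = 0.0466), with RLE size factors (0.68, adjusted p = 0.0223) and without RA1547M (0.62, adjusted p = 0.0396), and on day 2 without RA1547M (0.75, adjusted p = 0.0354).

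Of the 7 tested p53-responsive miRNAs, which include miR-192-5p and miR-194-5p, 1 was called up on day 1, 0 on day 2 and 2 on day 6. None was called down. With 6.55%, 0.69% and 6.55% of all 290 miRNAs called on these days, the counts of days 1 and 2 are near that share. miR-34a-5p, the best known direct p53 target among miRNAs, rose by 2.39 on day 6 (SE 0.42, adjusted p = 1.5e-05). So did miR-143-3p, abundant in smooth muscle and fibroblasts, by 0.86 (SE 0.27, adjusted p = 0.0351), a call that was lost with the animal as a block (0.81, adjusted p = 0.0615), without scaling factors (0.53, adjusted p = 0.422) and without any 1 of 16 of the 36 NHPs. The value of miR-34a-5p for day 1 was 1.29 (SE 0.42, adjusted p = 0.0469), a call that was lost with the block (adjusted p = 0.112) and under all other alternatives except RLE size factors. The median of the list was -0.05, -0.04 and 0.07 on days 1, 2 and 6, against 0.02, -0.07 and -0.04 over all miRNAs. The day 1 call of miR-34a-5p was also lost without any 1 of 27 of the 36 NHPs. miR-34a-5p and miR-215-5p therefore had values of opposite sign on days 1 and 6 in the same libraries.

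**Figure D3:**
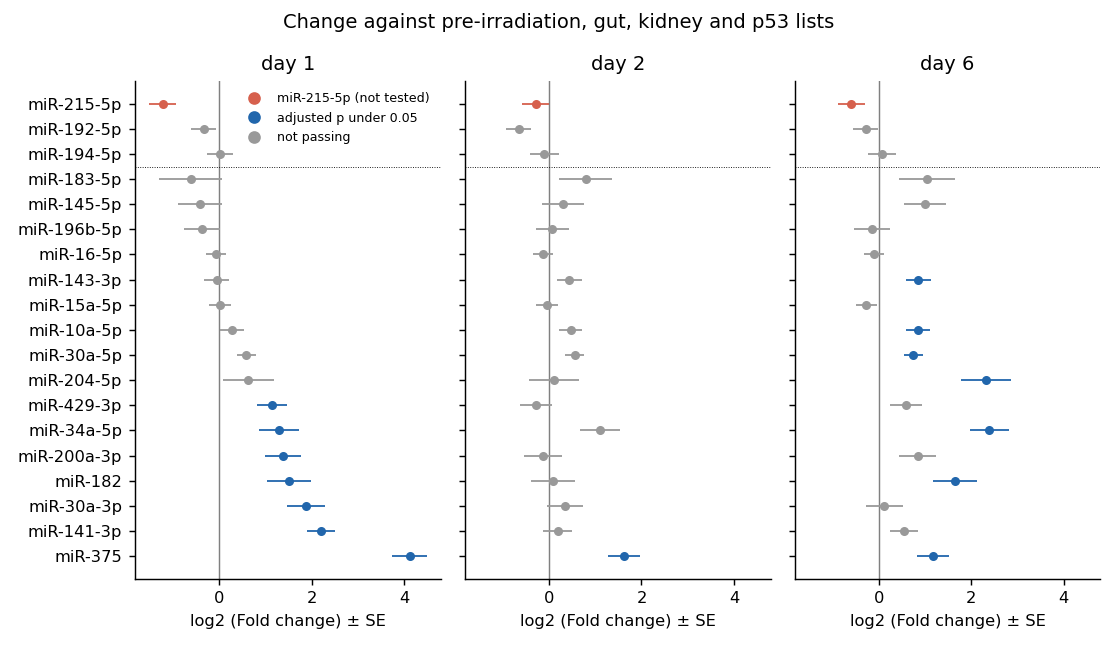
Log2 (Fold change) against pre-irradiation on days 1, 2 and 6 (144 libraries, bars are SE from edgeR) for miR-215-5p, miR-192-5p and miR-194-5p above the dotted line and the other tested members of the gut epithelium, kidney and p53-responsive lists below it. On day 1 miR-215-5p lies at -1.22, and miR-375 (4.11) and miR-141-3p (2.204) lie on the other side of 0.

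Markers of other sources of serum RNA are given beside these values, with lists too short to read a count of 0 against the 0.69% to 6.55% of all miRNAs called. Of the 3 tested liver miRNAs 0 were called on days 1, 2 and 6 in edgeR, and likewise 0 of 5 red blood cell miRNAs and 0 of 2 platelet miRNAs. Without RA2816M, miR-122a-5p, the miRNA that marks hepatocytes, was called on day 1 at -2.39 (adjusted p = 0.0404), against -0.87 (SE 0.77, adjusted p = 0.717) with all animals. The summed level of the liver list was 1193 to 15235 CPM before irradiation (median 4877) and 460 to 14929 CPM on day 1 (median 5100), with medians of 3282 and 3537 CPM on days 2 and 6. The summed level of the red blood cell list had a median of 535282 CPM before irradiation (213077 to 4451730) and of 854419 CPM on day 1 (127318 to 9345658), then of 626888 and 837881 CPM on days 2 and 6. These sums can exceed the common total because of the TMM factors, and their part in the values of miR-215-5p was tested only through the haemolysis score that follows. The platelet list had medians of 937, 887, 859 and 934 CPM in the order of sampling. No member of the 3 lists was without counts in all libraries of a time point. As a score of haemolysis, the log2 ratio of miR-451 (red blood cells) to miR-23a-3p had a median of 3.88 in pre-irradiation serum, then 4.17, 3.65 and 3.81 on days 1, 2 and 6. With this score as a covariate miR-215-5p had -1.17, -0.32 and -0.55 on days 1, 2 and 6.

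The next comparison asked whether the level of miR-215-5p followed RD. Before irradiation the medians of the 6 RD groups ran from 138 CPM (8.5 Gy) to 416 CPM (8.0 Gy), which gives the differences between groups that no radiation had reached. On day 1 they ran from 59.0 CPM (8.5 Gy) to 129 CPM (6.0 Gy), and on day 2 from 91.7 CPM (6.0 Gy) to 272 CPM (6.5 Gy). On day 6 the medians were 300.2 CPM at 6.0 Gy, 273 CPM at 6.5 Gy, 142 CPM at 7.0 Gy, 79.3 CPM at 7.5 Gy, 138 CPM at 8.0 Gy and 218 CPM at 8.5 Gy. At 8.5 Gy, where day 6 ran from 42.8 to 333 CPM, the level lay above that of 7.5 Gy, so the order did not follow RD throughout. At each time point the ranges of neighbouring RDs overlapped.

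The slope of the log2 level of miR-215-5p per Gy passed the test at no time point (edgeR, 36 libraries each, adjusted over 290 miRNAs). It was -0.02 before irradiation (SE 0.25, 95% interval -0.51 to 0.48, adjusted p = 0.999) and 0.20 on day 1 (SE 0.27, 95% interval -0.34 to 0.74, adjusted p = 0.778). On day 2 it was -0.03 (SE 0.23, 95% interval -0.49 to 0.43, adjusted p = 0.993), and on day 6 it was -0.35 (SE 0.21, 95% interval -0.77 to 0.07, adjusted p = 0.508). At the same 4 times, 0.69%, 0.69%, 1.72% and 5.52% of the 290 miRNAs were called. miR-192-5p had slopes of -0.45 on day 1 (SE 0.20, adjusted p = 0.248) and -0.49 on day 6 (SE 0.25, adjusted p = 0.337), which did not pass either. The slope of day 1 was -0.17 without RA2596M and 0.40 with library totals. The signs of the slopes before irradiation and on day 2 changed between alternatives, as the section on processing gives.

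The change of each animal gave no relation with RD that passed. The mean change over days 1, 2 and 6 was below 0 in 28 of 36 NHPs, with a median of -0.45. All 6 NHPs were lower at 6.0 Gy and at 8.0 Gy, 5 of 6 at 8.5 Gy, 4 of 6 at 6.5 Gy and at 7.5 Gy and 3 of 6 at 7.0 Gy. The slope was -0.30 per Gy (two-sided permutation p = 0.38, adjusted p = 0.814 over 3 tests, n = 36). On day 1 the median change was negative at every RD, from -0.56 at 7.0 Gy to -1.69 at 6.0 Gy, and all 6 NHPs at 8.5 Gy were lower. On day 6 the median change was 0.25 at 6.0 Gy, 0.52 at 6.5 Gy and 0.38 at 7.0 Gy, then -1.25 at 7.5 Gy, -1.25 at 8.0 Gy and -0.05 at 8.5 Gy. No NHP at 7.5 or 8.0 Gy was higher on day 6 than before irradiation, against 4 of 6 at each of the 3 lower RDs and 3 of 6 at 8.5 Gy, a grouping seen in the values and not tested. Of these, RA2709M at 7.5 Gy had 0 counts at both times, so its direction is not known. RA2816M at 8.0 Gy had 0 counts on day 6, so the size of its fall depends on the pseudocount. The 0 count of RA2709M before irradiation allows up to 124 CPM before scaling. At the TMM factor of 0.542 of that library this limit lay above the 131 CPM of day 1. The direction of RA2709M on day 1 is thus not known. The size of its rise on day 2, to 539 CPM, depends on the pseudocount of 1 CPM.

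**Figure D4:**
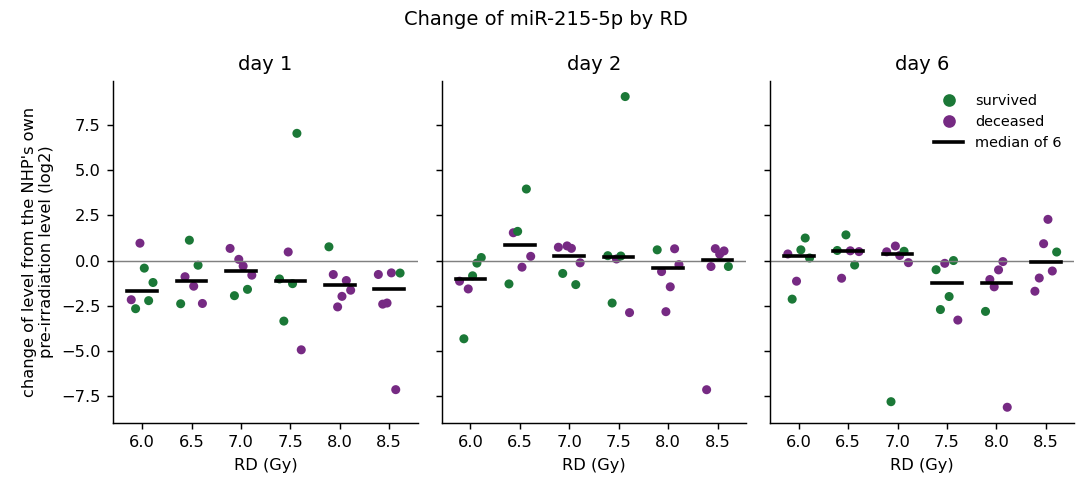
Change of the log2 level of miR-215-5p from the pre-irradiation level of the same NHP on days 1, 2 and 6, by RD in Gy (6 NHPs per RD, coloured by survival, black bars are medians). The medians of day 1 are below 0 at all 6 RDs, and those of day 6 run from 0.52 at 6.5 Gy to -1.25 at 7.5 and 8.0 Gy.

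Survival was tied to RD, so the levels of survivors and decedents over all RDs are given first as a description, and the tests then compare them within RD. Before irradiation survivors had 0 to 1202 CPM (median 176, n = 15) and decedents 64.8 to 1993 CPM (median 184.5, n = 21). On day 1 survivors had 28.7 to 1002 CPM (median 78.0) and decedents 0 to 461 CPM (median 85.5). On day 2 survivors had 51.0 to 1550 CPM (median 136) and decedents 0 to 519 CPM (median 214). On day 6 survivors had 0 to 555 CPM (median 140) and decedents 0 to 728 CPM (median 202). The ranges overlapped at each time point, with the higher median in decedents each time when RDs were pooled.

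No difference in miR-215-5p by survival within RD passed the test. Survivors minus decedents was -0.13 before irradiation (SE 0.42, 95% interval -0.98 to 0.72, adjusted p = 0.994) and 0.17 on day 1 (SE 0.43, 95% interval -0.70 to 1.04, adjusted p = 0.993). It was 0.46 on day 2 (SE 0.39, 95% interval -0.33 to 1.24, adjusted p = 0.995) and -0.34 on day 6 (SE 0.43, 95% interval -1.21 to 0.52, adjusted p = 0.71). The positive values of days 1 and 2 leaned on RA2596M, the only survivor at 8.0 Gy, without which they were -0.34 and 0.07. Without this animal 8.0 Gy no longer enters the comparison within RD. At 8.5 Gy the comparison rests on 1 survivor as well. With library totals the value of day 2 was 1.09 (adjusted p = 0.901). The background was 0% of 290 miRNAs at each of the 4 time points in edgeR and in DESeq2, with 18, 2, 7 and 36 miRNAs at unadjusted p under 0.05 in edgeR, in the same order of times. miR-192-5p on day 6 was among these, at -1.22 (SE 0.44, 95% interval -2.11 to -0.33, unadjusted p = 0.00833, adjusted p = 0.19), and failed the correction. The mean change of miR-215-5p after irradiation was lower than 0 in 12 of 15 survivors and 16 of 21 decedents, and differed within RD by 0.42 (survivors minus decedents, two-sided permutation p = 0.543, adjusted p = 0.814, n = 36).

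**Figure D5:**
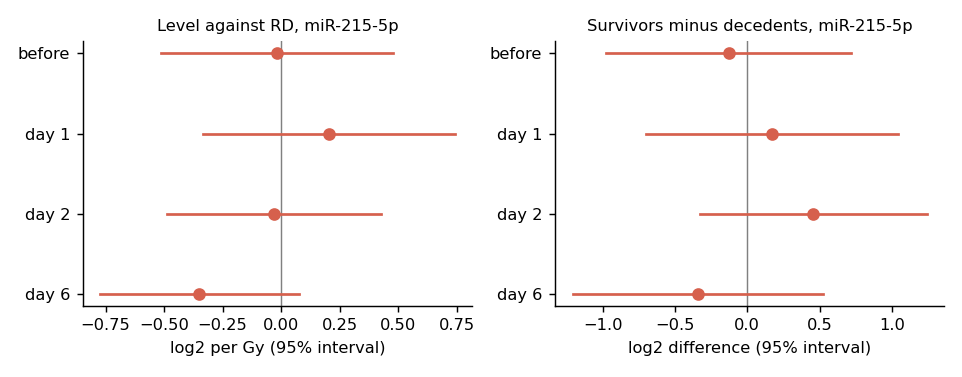
Slope of the log2 level of miR-215-5p per Gy (left) and survivors minus decedents within RD (right) at each time point, from edgeR on 36 libraries each, with 95% intervals as lines. Each interval includes 0, and the slope farthest from 0 is that of day 6 (-0.35 per Gy).

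No difference in miR-215-5p between females and males passed the test. The mean level over the 4 samples of an animal differed within RD by -0.07 on the log2 scale (females minus males, two-sided permutation p = 0.895, adjusted p = 0.895, n = 36). In the 4-way ANOVA that the methods of the study name, run on log2(CPM + 1) of all 144 libraries, miR-215-5p reached unadjusted p under 0.05 for none of the terms read. Its p was 0.604 for RD, 0.761 for Sex and 0.652 for survival (RRiF, the risk of radiation-induced fatality), and 0.104 for RD with RRiF. That threshold was passed for RD by 14.8% of the 290 miRNAs, for Sex by 3.79% and for RRiF by 9.31%. This test treats the 4 libraries of an animal as independent, and none of its terms with time was read, since time chose miR-215-5p. The joint term of RD, Sex and RRiF and the 4-way term were not obtained. In the study itself miR-215-5p is in the list of conserved miRNAs, which was drawn from those passing its own 4-way ANOVA at p under 0.05 for any term. Which term selected it there was not examined, so the values here do not show that the study's test missed it. The study also names miR-215-5p among those shared with the authors' earlier radiation list for mice, NHPs and humans.

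The miRNA whose level was most like that of miR-215-5p over the 144 libraries was miR-192-5p, with a Spearman rho of 0.658. The next were miR-193b-3p (0.344), miR-126 (0.34), let-7e-5p (0.338) and miR-450b-5p (0.33), all far below it. miR-194-5p was at place 60 of 289 with a rho of 0.187, although a miR-194 gene lies beside each partner, and it had a count in 95 libraries only. The points share animals, library totals and scaling factors, and for miR-192-5p possibly reads, so these values are descriptions. Without the 7 libraries of low total the rho of miR-192-5p was 0.671.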

How the data were processed

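Small RNA was measured in 144 serum libraries. Per the study's methods, the authors made TruSeq libraries from 5 µL of serum, kept reads of 19 to 25 bases with a maximum mismatch of 2 and counted mature macaque miRNAs of miRBase in Genomics Workbench; the labels name bcl2fastq. The deposited table holds raw counts, not normalized. Animal, sex, RD, time and survival came from the labels, where the pre-irradiation sample of RA2816M is described as RA2616M. The labels name no batch.

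edgeR 4.0.16 in R 4.3.3 was used on the counts (TMM factors, quasi-likelihood F tests, Benjamini-Hochberg adjustment over 290 miRNAs, threshold 0.05), with days in a model of time alone, RD and survival (RD as factor) on the 36 libraries of each time point. The methods take the pre-irradiation samples as the baseline and describe no model with an animal term, so the animal was a block in an alternative, although the labels tie 4 samples to each animal. Libraries of the same animal, paired by the labels, had residuals whose r averaged 0.0787, and for libraries of different animals 0.00996. Changes and sex were tested with 100000 two-sided permutations over animals, on log2(CPM + 1). DESeq2 1.42.0 was an alternative. The fits were tested on simulated data. Members and lists were chosen with earlier results of these data known. Named were the miR-192, miR-194 and miR-215 rows, seed sharers, the 5 miRNAs of highest rho, the haemolysis pair and examples from each list. Alternatives were RLE factors, library totals, no filter, a haemolysis covariate, a pseudocount of 10, no RD term, low or identical libraries left out and each animal left out.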

Additional observations from a re-analysis of the deposited data

Results flagged for a closer look

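Among 30 groups of 6 NHPs of 1 RD (the level at each time point and the mean change after irradiation), 10 held a value far from the other 5, where chance flags about 1 in 20 groups, or 1.5 of 30. In 5 of the 10 the distant value was a library with no count of miR-215-5p, at a log2 level of 0. These were RA2021F on day 6 at 7.0 Gy, RA2709M on day 6 at 7.5 Gy, RA2816M on day 6 at 8.0 Gy, RA2742F on day 1 at 8.5 Gy and RA2116F on day 2 at 8.5 Gy, with 2 to 24 counts of miR-192-5p in the same libraries. RA2021F was also low in its mean change (-3.49, against -0.80 for the nearest NHP at 7.0 Gy). That mean holds the same day 6 library, with a change of -7.81, against -1.94 on day 1 and -0.71 on day 2. Mean changes are computed from the same levels, so the 30 groups are not independent and the 1.5 is only a rough guide. Setting a count of 0 to a log2 level of 0 can by itself place a library far from the rest. No excess over 1.5 is therefore read from the 10.

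In the other groups the distant library had counts. RA0529F at 6.0 Gy had a mean change of -3.04, against -0.98 for the nearest NHP. RA0456F at 7.0 Gy had a level of 8.44 on day 2, above 7.27 for the next. Before irradiation RA2733F at 8.0 Gy had a low level of 6.17, against 8.12, and RA2318M at 8.5 Gy a high level of 9.35, against 7.15. The part of library depth in these values was not tested.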

How the results depend on the processing

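The fall of miR-215-5p on day 1 kept its direction in the 8 alternatives (-1.62 to -1.17) and without each animal (-1.52 to -0.96). The values of day 2 (-0.32 to -0.16) and day 6 (-0.94 to -0.38) stayed below 0 in the 8 alternatives. Without each animal they ran from -0.45 to 0.03 and from -0.77 to -0.34. With the animal as a block (paired libraries) they were -1.23, -0.18 and -0.38, and 15, 2 and 4 miRNAs were called on days 1, 2 and 6, against 19, 2 and 19. For day 1 the count was 11 with DESeq2, 11 with the haemolysis covariate and 6 without factors, and for day 6 it was 5 without factors and 51 of 626 without the filter. Without factors the median of all 290 miRNAs moved to -0.38 on day 6, and that of survivors minus decedents to 0.67 before irradiation and 0.76 on day 6.

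No RD, survival or sex result of miR-215-5p passed under any alternative. Several values near 0 changed sign, and the cause was not tested. The slope before irradiation was 0.0193 with DESeq2, 0.11 with RLE factors, 0.0469 without the filter, 0.0101 without the identical libraries and 0.10 with library totals (an alternative chosen after seeing the data). The slope of day 2 was 0.00274 with DESeq2, 0.00928 with RLE factors and 0.0323 without the filter. Survivors minus decedents was 0.24 before irradiation with library totals, and on day 6 it was 0.0648 with RLE factors and 0.28 with library totals, which moved day 2 to 1.09. The sex difference was 0.0542 without the low libraries. The change of miR-194-5p on day 1 was -0.16 with the block, -0.0438 without the filter and -0.0275 without the low libraries, and on day 6 it was -0.0355 with the block, -0.41 without factors and -0.0176 without the identical libraries.

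Without each animal in turn, the slopes ran from -0.10 to 0.26 before irradiation, -0.17 to 0.29 on day 1, -0.14 to 0.29 on day 2 and -0.45 to -0.22 on day 6. Survivors minus decedents ran from -0.33 to 0.24, -0.34 to 0.61, 0.07 to 0.72 and -0.67 to -0.08 at the same times. The lowest values of days 1 and 2, slopes included, were those without RA2596M. The change ran from -0.44 to -0.19 by RD and from 0.10 to 0.74 by survival, and the sex difference from -0.41 to 0.22. For miR-194-5p the ranges were -0.13 to 0.11, -0.29 to 0.073 and -0.18 to 0.19 on days 1, 2 and 6. At a median count of 46 for miR-215-5p and 3 for miR-194-5p, single libraries bear on each value.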
